A study of Mus musculus with 20 samples.

Results

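A set of 5 genes of the eicosanoid pathway and its control were measured in mouse ileal mucosa: Ptgs2, Alox5, Pla2g4c, Plaa and Anxa1. They were chosen by symbol, as all assays whose symbol is one of these 5 genes, and this gave 10 of the 648 assays (5 of 584 symbols) of the TaqMan OpenArray mouse inflammation panel, a set of real-time PCR assays. Alox5 was read by 6 assays and each of the other genes by 1. The 20 samples formed 4 groups of 5. Samples called CEC (1, 3, 5, 7 and 8) came from mice given DNBS into the rectum and CEC by mouth. Samples called Nissle (1 to 5) came from mice given intrarectal DNBS and oral Nissle. Samples called DNBS (1 to 5) came from mice given intrarectal DNBS and oral PBS and were labelled as sick controls. The healthy samples (1b, 3, 4, 5 and 6) came from mice given PBS by both routes. DNBS is a hapten used to provoke intestinal inflammation in rodents, and the labels give no more than the names CEC and Nissle for the oral treatments, and no strain, age, dose or time. Nissle 3, 4 and 5 carry an experimental-group label that names the healthy controls, while their titles, descriptions and treatment labels name Nissle. They were kept as Nissle, and the Nissle differences described for each gene are also given without them. The series' design text speaks of pooling equal RNA of each mouse, so it is unclear whether a sample is 1 mouse, and p-values cover the spread among the deposited samples alone, which could be of technical origin.

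Eicosanoids are lipid mediators made from arachidonic acid. Phospholipases A2, the family of Pla2g4c, free the fatty acid from membrane lipids, and Plaa was named as a phospholipase A2 activating protein and is also known as a ubiquitin-binding protein. Cyclooxygenases turn arachidonic acid into the precursor of prostaglandins, with Ptgs2 as the inducible form, while Alox5 encodes the 5-lipoxygenase of leukocytes, which starts leukotriene synthesis. Anxa1 encodes annexin A1, a glucocorticoid-induced protein that restrains phospholipase A2 activity and neutrophil entry into tissue through formyl peptide receptors. In the gut, prostaglandins also take part in the repair of the epithelium.

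The genes lie apart in the genome (RefSeq, GRCm38.p6; the deposited table names no build): Ptgs2 at chr1:150100031-150108234, Plaa at chr4:94565139-94603247, Alox5 at chr6:116410071-116461178, Pla2g4c at chr7:13311507-13360674 and Anxa1 at chr19:20373434-20390671. The 250 bases before the annotated start are shown for Ptgs2 (chr1:150099781-150100030, plus strand), Plaa (chr4:94603248-94603497, minus strand) and Anxa1 (chr19:20390672-20390921, minus strand), the 3 genes whose mean level was highest in the DNBS samples. Capitals mark matches to the motifs searched.
Ptgs2: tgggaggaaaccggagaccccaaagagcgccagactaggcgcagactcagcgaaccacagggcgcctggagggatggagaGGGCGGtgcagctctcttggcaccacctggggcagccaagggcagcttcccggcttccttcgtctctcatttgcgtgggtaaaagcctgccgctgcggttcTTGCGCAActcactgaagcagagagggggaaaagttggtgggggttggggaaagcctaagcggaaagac
Plaa: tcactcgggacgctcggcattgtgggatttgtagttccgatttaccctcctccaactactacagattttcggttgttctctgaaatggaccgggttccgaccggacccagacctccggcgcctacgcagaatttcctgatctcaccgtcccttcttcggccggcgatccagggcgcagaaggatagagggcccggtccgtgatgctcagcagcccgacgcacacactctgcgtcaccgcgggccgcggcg
Anxa1: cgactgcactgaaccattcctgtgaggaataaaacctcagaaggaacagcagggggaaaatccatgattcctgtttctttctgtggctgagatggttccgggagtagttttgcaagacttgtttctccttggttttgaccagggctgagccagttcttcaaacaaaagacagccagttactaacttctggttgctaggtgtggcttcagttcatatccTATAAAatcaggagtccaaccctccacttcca
A set of 6 motifs were searched on both strands of windows of 300 bases (250 before and 50 after the start): TATAAA (the TATA box), CCAAT (the CCAAT box), GGGCGG (a GC box), CACGTG (an E-box), TTGCGCAA (a C/EBP palindrome) and TGACGTCA (the cAMP response element), none of which overlapped in these 3 windows. The Ptgs2 window held GGGCGG at -170 and TTGCGCAA at -69, counted from the start, and CACGTG after the start. TTGCGCAA was found in 0.183% of the 32841 promoter windows in the RefSeq table, GGGCGG in 35.7% and CACGTG in 7.15%. The Anxa1 window held TATAAA at -32, a motif found in 13.6% of windows. None of the 6 motifs was found in the Plaa window. The Anxa1 stretch had a GC content of 46%, against 61.6% for Ptgs2 and 61.2% for Plaa. A match describes the letters and shows no binding.

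All 10 assays gave a value in all 20 samples. The measure is the relative level, the negative of an assay's cycle threshold (Ct) minus the sample's mean Ct over the 544 assays that were never undetermined. Its unit is log2 on the assumption that product doubles with each cycle, and 0 is the sample's mean. Levels of different assays cannot be set against each other. Per sample, 570 to 594 assays had a value and the mean Ct was 22.6 to 24.3. Over single samples the Ct ran from 24.5 to 28.6 for the Alox5 assays and from 23.3 to 28.5 for Ptgs2. For Pla2g4c it ran from 22.6 to 29.6, the latest in CEC 3. It was earlier for Plaa (19.6 to 21.3) and Anxa1 (19.8 to 22.6). The part of late Ct values in the spread of an assay was not tested. In bulk mucosa, fewer cells of a type and less RNA per cell cannot be told apart. Markers of epithelium (5 assays of Apoa1, Krt8, Reg3g and Ccl25) were measured in every sample, with a summed linear level of 2148 to 5344. No marker of smooth muscle or fibroblasts and no prostanoid receptor was on the panel. None of the 10 assays passed the threshold, a limma p of 0.05 after Benjamini-Hochberg adjustment over 569 assays, in any of 6 comparisons. Of all 569 assays, 1 (0.176%) passed in each of the 3 comparisons with the healthy samples and 0 (0%) in CEC against DNBS, Nissle against DNBS and CEC against Nissle. At an unadjusted p of 0.05, 2 of the 10 assays (Pla2g4c and Anxa1) passed between DNBS and healthy, against 14.6% of all assays, 1 between CEC and healthy (3.87% of all) and 0 between Nissle and healthy (9.49%). The count was 2 of 10 for CEC against DNBS (Plaa and 1 Alox5 assay, against 10.7% of all), 2 for Nissle against DNBS (Plaa and Anxa1, against 4.22%) and 1 for CEC against Nissle (1 Alox5 assay, against 1.41%). The ranges of the 2 groups did not overlap for 1 of the 10 assays in CEC against DNBS (Plaa, against 3.16% of all) and for 2 in Nissle against DNBS (Plaa and Anxa1, against 1.05%). They overlapped for all 10 in DNBS against healthy, CEC against healthy, Nissle against healthy and CEC against Nissle, where 4.75%, 0.879%, 2.99% and 0.351% of all assays had ranges without overlap. The median difference of the 10 assays was 0.15 between DNBS and healthy, against -0.07 over all 569 assays, 0.19 between CEC and healthy (-0.08 over all) and -0.01 between Nissle and healthy (-0.10 over all). It was -0.02 between CEC and DNBS, -0.02 between Nissle and DNBS and 0.04 between CEC and Nissle, where all assays had -0.02, -0.06 and 0.06.

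Pla2g4c, a cytosolic phospholipase A2, had the widest spread of the 5 genes and was lowest on average in the CEC and DNBS samples. Its relative level was -4.85, -6.27, -2.43, -1.40 and -1.84 in CEC 1, 3, 5, 7 and 8, and -5.22, -1.02, -2.24, -1.79 and -2.68 in Nissle 1 to 5. It was -2.23, -4.46, -2.59, -4.77 and -2.72 in DNBS 1 to 5, against -3.07, -0.34, 0.38, -0.76 and -1.16 in healthy 1b, 3, 4, 5 and 6. CEC 1 and 3, Nissle 1 and DNBS 2 and 4 were the 5 lowest samples, and healthy 1b was the low healthy sample. The CEC and DNBS ranges overlapped the healthy range through healthy 1b alone, and the Nissle range also through Nissle 2. The means were -3.36 ± 2.11 in CEC, -2.59 ± 1.59 in Nissle, -3.35 ± 1.17 in DNBS and -0.99 ± 1.29 in healthy samples (SD, n = 5 each). The difference between DNBS and healthy was -2.36 (SE 0.91, 95% interval -4.26 to -0.47), 5.15-fold lower on the assumption of doubling, with an adjusted p of 0.187 by limma. Between CEC and healthy it was -2.37 (SE 0.91), the third smallest p of the 569 assays, with an adjusted p of 0.803, and between Nissle and healthy -1.60 (SE 0.91, adjusted p = 0.516, limma). These 3 comparisons share the healthy samples. The interval of the difference between CEC and DNBS ran from -1.90 to 1.90 around -0.00, and that between Nissle and DNBS from -1.14 to 2.66 around 0.76, so neither direction was settled. CEC against Nissle gave -0.76 (SE 0.91). Nissle against healthy was -0.95 without Nissle 1, and with single samples left out CEC against Nissle ran from -1.42 (without Nissle 1) to -0.04 (without CEC 3) and Nissle against DNBS from 0.37 (without Nissle 2) to 1.42 (without Nissle 1). Without Nissle 3, 4 and 5 the Nissle samples differed by -2.14 from healthy and by 0.23 from DNBS, and CEC against Nissle was -0.23.

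**Figure D1:**
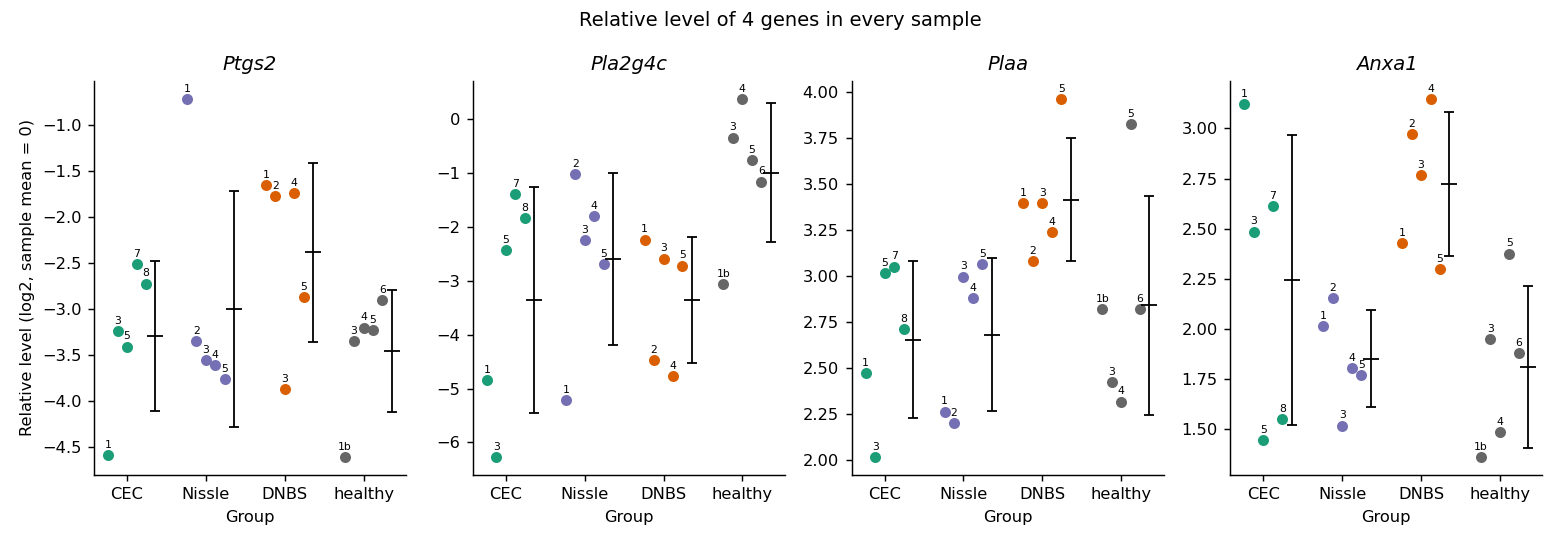
Relative level (log2, y axis) of Ptgs2, Pla2g4c, Plaa and Anxa1 in each of 20 samples, by group (x axis); points carry the sample number, and the bar beside each group is the mean ± SD of its 5 samples. Plaa in DNBS samples lies above all CEC and Nissle samples, Anxa1 in DNBS samples lies above all Nissle samples, and the Ptgs2 level of Nissle 1 stands apart at -0.72.

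Plaa varied little. Its level was 2.47, 2.02, 3.02, 3.05 and 2.71 in CEC 1, 3, 5, 7 and 8, and 2.26, 2.20, 2.996, 2.88 and 3.06 in Nissle 1 to 5. DNBS 1 to 5 had 3.40, 3.08, 3.40, 3.24 and 3.96, and the healthy samples 2.82, 2.42, 2.32, 3.83 and 2.82. All CEC and all Nissle samples lay below the lowest DNBS sample, while the DNBS and healthy ranges overlapped through healthy 5. The means were 2.65 ± 0.43 in CEC, 2.68 ± 0.42 in Nissle, 3.42 ± 0.33 in DNBS and 2.84 ± 0.60 in healthy samples (SD, n = 5 each). The difference between CEC and DNBS was -0.76 (SE 0.29, 95% interval -1.36 to -0.17, adjusted p = 0.385, limma) and that between Nissle and DNBS -0.73 (SE 0.29, adjusted p = 0.850, limma), or -1.19 without Nissle 3, 4 and 5. DNBS against healthy gave 0.57 (SE 0.29, adjusted p = 0.376, limma), or 0.73 with the sample number of the titles as a replicate block, CEC against healthy -0.19, Nissle against healthy -0.16 and CEC against Nissle -0.03. Without Nissle 3, 4 and 5 the last 2 were -0.62 and 0.42.

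The Plaa values moved with the place of the assay in the deposited table. The table was split into 12 sections, inferred from its order. Ascending runs of assay numbers alternate in it, and a section was started where the runs fall back. The meaning of a section was not given in the sources used here. A section's shift in a sample is the median deviation of its assays from their own medians over all samples. The shift of the section with Plaa ran from -0.72 to 1.17, and the level of Plaa followed it with r = 0.85 (Spearman 0.74, 20 samples, a description, since Plaa is 1 of the section's own assays and shares its scaling). After the shift was subtracted, an alternative chosen after seeing the data, the SD of Plaa over samples was 0.282, against 0.522 before. The difference was then -0.40 between CEC and DNBS and -0.39 between Nissle and DNBS, both with overlapping ranges, and 0.40 between DNBS and healthy, where 4 of 5 DNBS samples exceeded every healthy sample (adjusted p = 0.167, limma). DNBS 3 did so by a very small margin, at 2.940 against 2.939 in healthy 5. Among the Alox5 assays, Alox5_Mm01182740_g1 followed its section with r = 0.74 (Spearman 0.66, SD 0.466 after and 0.683 before), Alox5_Mm01182743_m1 with r = 0.51 (Spearman 0.63, SD 0.298 after and 0.346 before) and Alox5_Mm01182748_m1 with r = 0.44 (Spearman 0.57), and the other 3 had r from -0.14 to 0.30. Ptgs2 (r = -0.12), Pla2g4c (r = -0.26) and Anxa1 (r = 0.06) did not follow theirs in this way, and their SDs were slightly higher after the subtraction, at 1.01, 1.97 and 0.633.

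**Figure D2:**
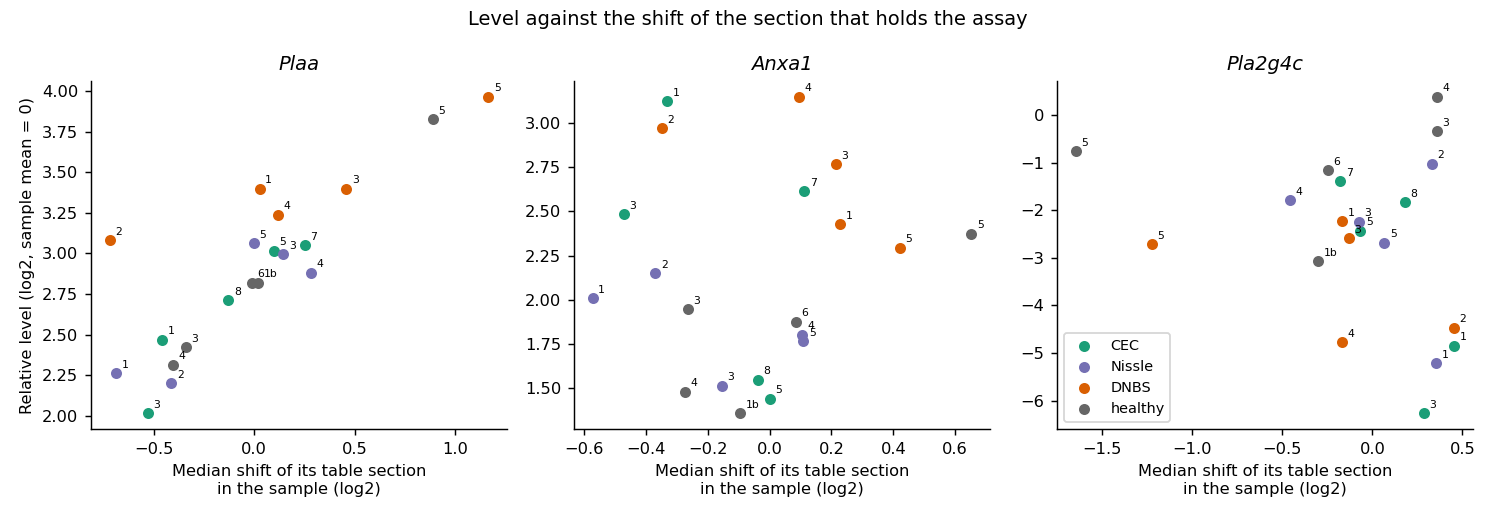
Relative level (log2, y axis) against the median shift of the table section that holds the assay (log2, x axis) in 20 samples, for Plaa, Anxa1 and Pla2g4c; colours give the group and numbers the sample. Plaa climbs with its section's shift (r = 0.85), while Anxa1 (r = 0.06) and Pla2g4c (r = -0.26) are scattered.

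Ptgs2, the inducible cyclooxygenase, was high in 4 samples. Its level was -4.58, -3.24, -3.41, -2.51 and -2.72 in CEC 1, 3, 5, 7 and 8, and -0.72, -3.35, -3.56, -3.61 and -3.76 in Nissle 1 to 5. DNBS 1 to 5 had -1.66, -1.77, -3.87, -1.74 and -2.87, and the healthy samples -4.60, -3.35, -3.20, -3.23 and -2.91. Nissle 1 and DNBS 1, 2 and 4 were the high samples, and 4 of 5 DNBS samples exceeded every healthy sample, DNBS 5 by a small margin, while DNBS 3 lay low in the healthy range. The means were -3.29 ± 0.81 in CEC, -3.00 ± 1.28 in Nissle, -2.38 ± 0.97 in DNBS and -3.46 ± 0.66 in healthy samples (SD, n = 5 each). DNBS against healthy gave 1.08 (SE 0.59, 95% interval -0.15 to 2.30), 2.11-fold higher, which missed the threshold (adjusted p = 0.408, limma). With the title number as a replicate block the difference was 0.60. CEC against healthy gave 0.17 and CEC against DNBS -0.91 (SE 0.59, adjusted p = 0.573, limma), or -0.59 without CEC 1. The Nissle values turned on Nissle 1: Nissle against healthy was 0.46 with it and -0.11 without it, Nissle against DNBS -0.62 with it and -1.18 without it, and CEC against Nissle -0.29 with it and 0.28 without it. Without Nissle 3, 4 and 5 these 3 differences were 1.42, 0.34 and -1.26.

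Alox5 gave no group difference that its 6 assays shared. The mean of the 6 assays was -2.84, -2.77, -2.98, -2.24 and -2.73 in CEC 1, 3, 5, 7 and 8, and -3.01, -2.38, -3.25, -2.92 and -3.07 in Nissle 1 to 5. It was -2.89, -3.32, -2.99, -2.98 and -2.83 in DNBS 1 to 5, against -3.36, -2.80, -2.55, -3.45 and -2.91 in the healthy samples. All 4 groups overlapped. The group means were -2.71 ± 0.28 in CEC, -2.93 ± 0.33 in Nissle, -3.00 ± 0.19 in DNBS and -3.01 ± 0.38 in healthy samples (SD, n = 5 each). Against healthy samples the mean of the 6 assays differed by 0.01 in DNBS (3 of 6 assays higher, single assays -0.33 to 0.23), by 0.30 in CEC (5 of 6 higher, -0.08 to 0.69) and by 0.09 in Nissle (3 of 6 higher, -0.24 to 0.61). It differed by 0.29 between CEC and DNBS (4 of 6 higher, -0.05 to 0.87), by 0.08 between Nissle and DNBS (4 of 6, -0.34 to 0.38) and by 0.21 between CEC and Nissle (4 of 6, -0.26 to 0.88). Without Nissle 3, 4 and 5 the 3 differences with Nissle were 0.31 (against healthy), 0.30 (against DNBS) and -0.02 (CEC against Nissle). The 95% intervals of single assays for DNBS against healthy lay within -1.08 to 1.19.

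The 6 Alox5 assays ranked the samples differently. The SD of a single assay over the 20 samples was 0.346 to 0.683. Over the 15 pairs of assays, Pearson's r over 20 samples ran from -0.11 to 0.54 with a median of 0.14, and Spearman's rho from -0.18 to 0.48 with a median of 0.03, as descriptions of assays that share samples and scaling. Alox5_Mm01182740_g1 had its lowest value, -4.86, in healthy 5, where its table section was shifted by -1.40, and its level there was -3.46 after that shift was subtracted. Alox5_Mm01182749_m1 averaged -2.46 ± 0.53 in CEC and -3.33 ± 0.38 in DNBS samples (SD, n = 5 each), a difference of 0.87 with 4 of 5 CEC samples above the highest DNBS sample (SE 0.36, adjusted p = 0.416, limma). Alox5_Mm01182748_m1 averaged -1.99 ± 0.34 in CEC and -2.87 ± 0.74 in Nissle samples (SD, n = 5 each), a difference of 0.88 (SE 0.39, adjusted p = 0.998, limma) that was 0.16 without Nissle 3, 4 and 5. In each case the other 5 assays did not give an unadjusted p under 0.05.

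**Figure D3:**
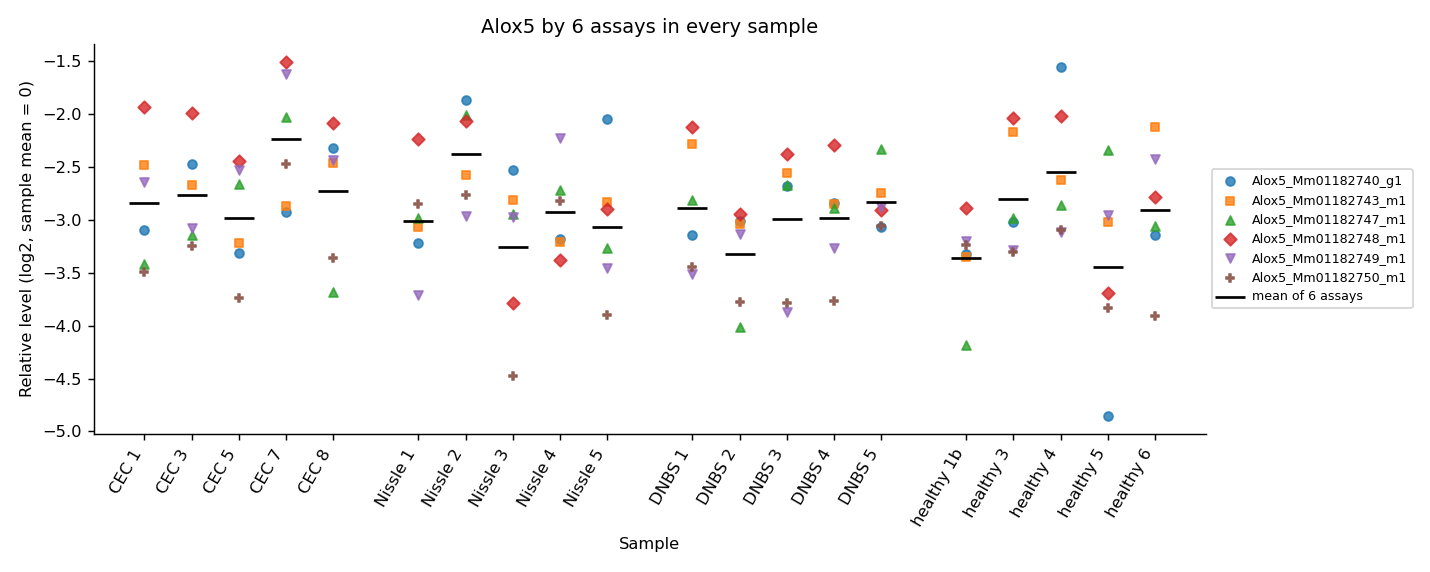
Relative level (log2, y axis) of 6 Alox5 assays in each of 20 samples (x axis, by group); symbols stand for assays and the black bar for the mean of the 6. The bars run from -3.45 to -2.24 with overlapping groups, and the order of the 6 symbols differs from sample to sample.

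Anxa1, the annexin, was highest in DNBS samples and had the smallest adjusted p of the 10 assays between DNBS and healthy. Its level was 3.12, 2.49, 1.44, 2.61 and 1.55 in CEC 1, 3, 5, 7 and 8, and 2.01, 2.15, 1.52, 1.80 and 1.77 in Nissle 1 to 5. DNBS 1 to 5 had 2.43, 2.97, 2.77, 3.15 and 2.30, and the healthy samples 1.36, 1.95, 1.48, 2.37 and 1.88. Every DNBS sample lay above every Nissle sample, and 4 of 5 exceeded every healthy sample, DNBS 1 by a small margin. The CEC samples lay within the DNBS range (1, 3 and 7) or below it (5 and 8). The means were 2.24 ± 0.72 in CEC, 1.85 ± 0.24 in Nissle, 2.72 ± 0.36 in DNBS and 1.81 ± 0.40 in healthy samples (SD, n = 5 each). DNBS against healthy gave 0.91 (SE 0.30, 95% interval 0.30 to 1.53), 1.88-fold higher, with rank 22 among the 569 p-values and an adjusted p of 0.146 by limma. With the title number as a replicate block it was 0.63, with an unadjusted p of 0.115 and an adjusted p of 0.669 by limma. After section shifts were subtracted it was 0.81, with 3 of 5 DNBS samples above every healthy sample (adjusted p = 0.201, limma). Nissle against DNBS gave -0.87 (SE 0.30, 95% interval -1.49 to -0.26), which had the smallest p of all 569 assays and an adjusted p of 0.850 by limma. It was -0.65 without Nissle 3, 4 and 5, and -0.57 with overlapping ranges after section shifts were subtracted. Both comparisons share the DNBS samples. CEC against healthy gave 0.43, Nissle against healthy 0.04 (95% interval -0.57 to 0.66), CEC against DNBS -0.48 (SE 0.30, adjusted p = 0.553, limma) and CEC against Nissle 0.39. Leaving out 1 sample moved CEC against healthy to 0.21 (without CEC 1), CEC against DNBS to -0.28 (without CEC 5) or -0.31 (without CEC 8) and CEC against Nissle to 0.17 (without CEC 1) or 0.59 (without CEC 5). Without Nissle 3, 4 and 5, Nissle against healthy was 0.27 and CEC against Nissle 0.16.

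**Figure D4:**
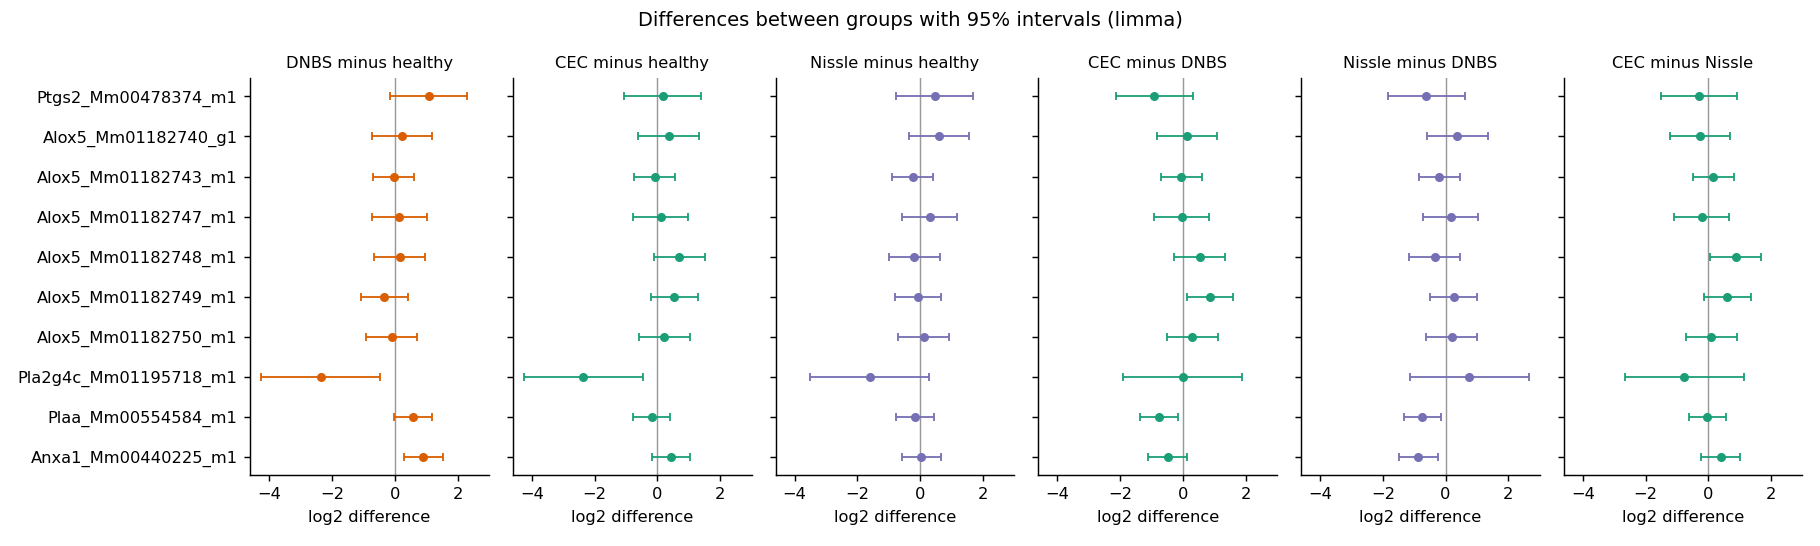
Log2 difference of relative level (x axis, points) with its 95% interval from limma (bars) for the 10 assays (y axis) in 6 comparisons. Intervals leave out 0 for Pla2g4c and Anxa1 in DNBS minus healthy, Pla2g4c in CEC minus healthy, Plaa and 1 Alox5 assay in CEC minus DNBS, Plaa and Anxa1 in Nissle minus DNBS and 1 Alox5 assay in CEC minus Nissle, and none of the 10 assays passed after adjustment.

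Under equal weights none of these differences passed, but the call depended on the weight given to each sample. With limma's array weights, which weight samples by their scatter, Anxa1 (1.08, adjusted p = 0.00883), Plaa (0.73, adjusted p = 0.0312) and Pla2g4c (-2.39, adjusted p = 0.0401) passed between DNBS and healthy samples. They were among 90 of all 569 assays that passed with these weights. No Alox5 assay and no Ptgs2 assay passed there. With the title number as a replicate block 2 of the 569 assays passed between DNBS and healthy, none of them one of the 10.

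The panel held 17 further assays of pathway genes. They were Ptgs1 and Ptges of prostaglandin synthesis, the phospholipases Pla2g2d, Pla2g2e and Pla2g7, and Lta4h, Alox5ap, Alox15 and Ephx2 of leukotriene synthesis and lipid oxidation. The others were the receptors Ltb4r1, Ptafr, Cmklr1, Fpr1 and Fpr3 and the nuclear receptors Nr3c1 and Pparg (2 assays). None of the 17 passed after adjustment in any of the 6 comparisons, against 0% to 0.176% of all assays. None reached an unadjusted p of 0.05 (limma), against 1.41% to 14.6% of all assays, depending on the comparison. None had ranges without overlap, against 0.351% to 4.75% of all. With 17 assays, these counts are not read as a result about the pathway. Of the 17 assays 11 were higher in DNBS than in healthy samples, 12 in CEC and 11 in Nissle, against 254, 250 and 240 of all 569 assays. These 3 comparisons share the healthy samples. In the same order, the smallest adjusted p of the 17 assays was 0.408, 0.803 and 0.4997 (limma). The value of 0.408 was that of Pla2g2d, which was lower in DNBS than in healthy samples.

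Alox5ap, the protein that presents arachidonic acid to 5-lipoxygenase, differed from healthy samples by 0.69 in DNBS, 0.89 in CEC and 0.94 in Nissle, and by 2.14 in Nissle without Nissle 3, 4 and 5 but 0.49 without Nissle 1. Its level was 0.84, 0.43, -1.38, -1.80 and -1.64 in CEC 1, 3, 5, 7 and 8, 1.12, -0.03, -1.49, -1.36 and -1.54 in Nissle 1 to 5, -0.68, -0.56, -0.91, -0.38 and -1.99 in DNBS 1 to 5 and -2.28, -1.25, -1.53, -1.88 and -1.06 in the healthy samples. CEC 1 and 3 and Nissle 1 and 2 were high, and the other CEC and Nissle samples lay in the healthy range. Of the 5 DNBS samples, 4 also exceeded every healthy sample. The constitutive cyclooxygenase Ptgs1 differed from healthy by 0.15 in DNBS, 0.86 in CEC and 0.75 in Nissle, and the prostaglandin E synthase Ptges by 0.38, 0.78 and 0.80. Both rested on healthy 5, without which Ptgs1 gave -0.35, 0.36 and 0.24 and Ptges -0.14, 0.26 and 0.28 in the same order. The leukotriene B4 receptor Ltb4r1 differed by 0.62, 1.01 and 0.77 and the platelet-activating factor receptor Ptafr by 0.81, 0.57 and 1.23. Without Nissle 1 the Nissle values were 0.29 for Ltb4r1 and 0.69 for Ptafr. The Nissle difference from healthy without Nissle 3, 4 and 5 was 0.99 for Ptgs1, 1.60 for Ptges, 1.99 for Ltb4r1 and 2.63 for Ptafr, from 2 samples. Lta4h, which makes leukotriene B4, gave -0.54, -0.27 and -0.52, and Fpr1, a formyl peptide receptor, 0.09, 0.01 and 0.24 (Nissle without 3, 4 and 5 gave -0.85 and 0.66). The other formyl peptide receptor measured, Fpr3, gave -0.75 (from 4 DNBS samples), 0.14 and -0.36. Nissle without 3, 4 and 5 gave -0.68 for Fpr3. Alox5ap and Lta4h, both of leukotriene synthesis, did not share a sign, and in Lta4h 4 of 5 DNBS samples lay below every healthy sample. Also lower in DNBS than in healthy samples were Pla2g2d (-0.59), Nr3c1 (-0.44), Ephx2 (-0.28) and Alox15 (-0.0019). Higher in DNBS were Pla2g2e (1.28, from 3 healthy samples), Pla2g7 (0.30), Cmklr1 (0.07) and the Pparg assays (0.33 and 0.43).

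Pla2g4c ran opposite to neutrophil markers across the samples, and also to macrophage markers. The 8 marker assays (S100a8, S100a9, Ltf, Camp, Ncf1, Fpr1 and Il8rb) averaged 0.02, 0.45, -2.65, -2.82 and -2.35 in CEC 1, 3, 5, 7 and 8, and 2.66, -1.32, -1.78, -1.57 and -2.43 in Nissle 1 to 5. They averaged -0.42, 0.79, -0.16, -0.22 and -2.25 in DNBS 1 to 5, against -1.71, -2.80, -3.29, -2.72 and -2.33 in the healthy samples. The 5 samples lowest in Pla2g4c, CEC 1 and 3, Nissle 1 and DNBS 2 and 4, were among the 6 highest in these markers, and the other of those 6, DNBS 3, had a Pla2g4c level of -2.59. The 8 assays were all higher in DNBS than in healthy samples with a median difference of 2.14, none called (smallest adjusted p = 0.122, limma), and their summed linear level ran from 2.33 to 28.4 in CEC, 2.77 to 183 in Nissle, 4.10 to 63.3 in DNBS and 1.95 to 4.52 in healthy samples. Over 20 samples the correlation of Pla2g4c with the marker mean was r = -0.81 (Spearman -0.76), and r was -0.79 without Nissle 1 and DNBS 2, the samples farthest from the median of the markers. Taken as deviations from the group means it was -0.81, and with section shifts subtracted from Pla2g4c -0.83. These are descriptions of values that share samples and scaling, picked from 10 assays after their values were seen. With the mean of 8 macrophage, monocyte and dendritic cell markers Pla2g4c had r = -0.71 (Spearman -0.49), and -0.60 without CEC 1 and Nissle 1. Plaa had r = -0.59 with them (Spearman -0.48), and -0.02 after section shifts were subtracted from Plaa. Anxa1 had r = 0.43 with them (Spearman 0.43), and 0.75 after section shifts were subtracted from Anxa1. The summed linear level of these 8 ran from 5.70 to 17.1 in CEC, 5.69 to 18.2 in Nissle, 6.08 to 9.82 in DNBS and 4.94 to 7.10 in healthy samples. With the neutrophil markers, for Anxa1 r was 0.51 (Spearman 0.52), 0.64 without Nissle 1 and DNBS 2, and 0.70 after the section shifts were subtracted. For Ptgs2 r was 0.46 with Spearman 0.11, and -0.00 without those 2 samples, so it rested on them. Ptgs2 also ran against the epithelial markers (r = -0.62, Spearman -0.52, and r = -0.41 without Nissle 1 and DNBS 2). So did Plaa (r = -0.45, Spearman -0.44, and r = -0.69 without those 2 samples). Anxa1 had r = -0.43 (Spearman -0.52) with them, and -0.28 after section shifts were subtracted from Anxa1. The epithelial mean holds 2 assays of Apoa1, and both were among the 3 assays most opposed to Ptgs2 (r = -0.67 and -0.66). Of its 5 assays, 4 were lower and 1 higher in DNBS than in healthy samples. Whether the Ptgs2 relation holds for the other epithelial genes was not tested. The part of the neutrophil, macrophage and epithelial markers in the group differences was not tested.

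**Figure D5:**
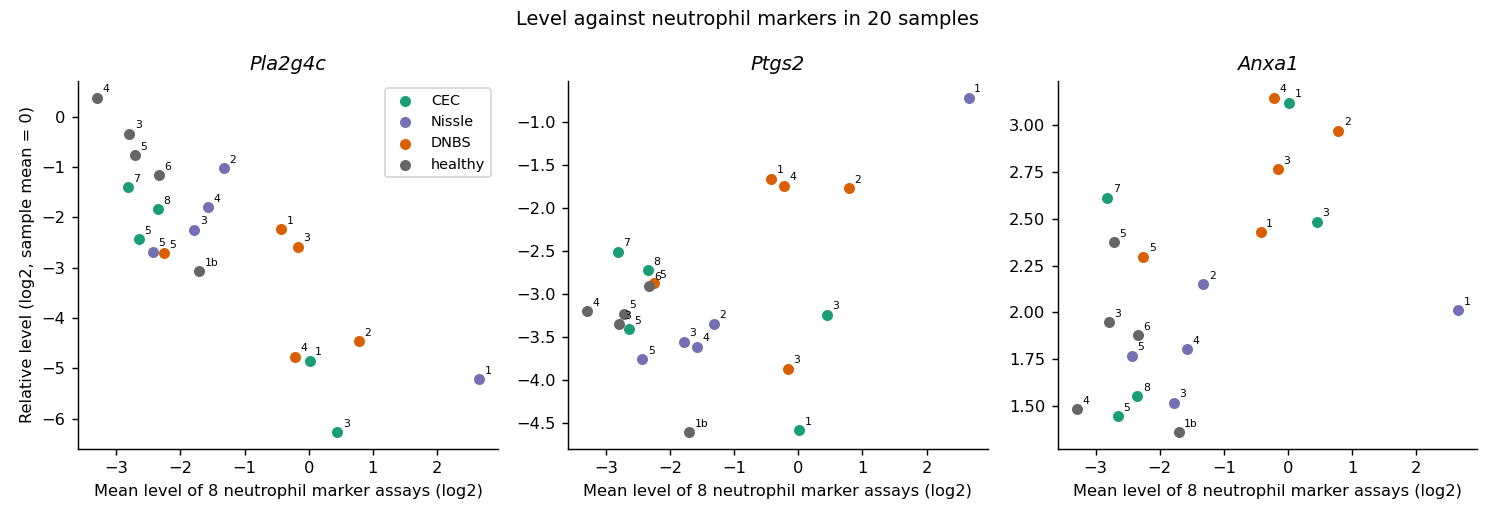
Relative level (log2, y axis) of Pla2g4c, Ptgs2 and Anxa1 against the mean relative level of 8 neutrophil marker assays (log2, x axis) in 20 samples; colours give the group and numbers the sample. Pla2g4c falls along the axis over the 20 samples (r = -0.81), though not among Nissle 2 to 5, and the Ptgs2 relation rests on Nissle 1 and DNBS 2.

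The assays most alike each gene were taken by Pearson's r of relative levels over 20 samples (18 for Gdf3 and Lep), 3 for each assay. For Ptgs2 they were the interleukin Il1b (r = 0.79, Spearman 0.63), the eosinophil chemokine Ccl11 (0.75 and 0.43) and the interleukin-1 receptor antagonist Il1rn (0.72 and 0.44). Without the 2 samples farthest from the median of the other gene, r was 0.59, 0.49 and 0.41. For Pla2g4c they were Ltbp4, which binds latent TGF-beta (0.84 and 0.78), the complement gene C2 (0.81 and 0.68) and the endocytic receptor Ly75 (0.80 and 0.62), and r without 2 samples was 0.83, 0.78 and 0.68. The assay most opposed to Pla2g4c, looked up after its values were seen, was 1 of S100a8, a neutrophil calcium-binding protein (r = -0.86, Spearman -0.75). For Anxa1 they were the haem oxygenase Hmox1 (0.77 and 0.76), the mucin Muc1 (0.70 and 0.69) and the lipopolysaccharide-degrading enzyme Aoah (0.67 and 0.64). For Plaa they were Txlna (0.92 and 0.89), Timm50 (0.90 and 0.80) and Ltbr (0.90 and 0.87), of which Txlna and Ltbr stand in the same table section as Plaa. The gene most alike differed between all 6 Alox5 assays: Tnfsf13b (r = 0.80, in the same section), Ptn (0.61), Gdf3 (0.67), Bmp1 (0.77), Cd28 (0.70) and Lep (0.70, and 0.37 without 2 samples) in the order of assay number.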

How the data were processed

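RNA of 20 ileal mucosa samples was isolated with the mirVana kit and read on the OpenArray panel, per the labels' protocols, with an average RNA integrity number above 9. The deposited table holds unscaled cycle thresholds (Ct), per the file headers; baseline and threshold settings are not given in the sources used here. The value 40 stood for no amplification (1273 of 12960 cells) and was left missing, and 1 cell was empty. Relative levels were fitted with limma 3.58.1 in R 4.3.3 as 4 group means over 20 samples, with a variance trend, two-sided tests and Benjamini-Hochberg adjustment within each comparison. The 569 assays with at least 3 values per group were tested. Log2 differences had a median SE of 0.416, and the number of samples limits precision. The fit was tested on simulated data with known changes. The simulated noise was independent between assays and held no shift shared by a table section, so the test does not cover such shifts.

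The 5 genes, pathway lists and marker lists were chosen with earlier results of these data known. Named besides the 5 genes were measured members of the pathway lists, whatever their values, and the 3 assays most alike each. Alternatives covered scaling, undetermined values, filters, weights, trend, groups fitted, each sample left out and table sections.

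Title numbers were checked for pairing: deviations of DNBS and healthy samples with the same number (3, 4 and 5) correlated at 0.18, 0.14 and 0.49. They correlated at 0.13 and 0.11 between CEC and healthy samples (3 and 5). Between Nissle and healthy samples (3, 4 and 5) the values were -0.16, -0.40 and -0.15. The comparisons without healthy samples were mixed in sign. Whether samples with equal numbers are pairs is therefore not settled. The replicate block, which joins equal numbers across all groups, is given as an alternative alone. With the replicate block, 2 assays were called between DNBS and healthy samples, against 1 without. No 2 samples held identical values.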

Additional observations from a re-analysis of the deposited data

Results flagged for a closer look

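The Ptgs2 level of Nissle 1 was -0.72, while the nearest of the other 4 Nissle samples had -3.35. Its gap took 0.864 of the group's range, beyond the 95% critical value of Dixon's test for 5 samples. The Ptgs2 level of healthy 1b was -4.60, while the nearest healthy sample had -3.35, a gap of 0.738 of the range. These were 2 of 40 groups of 5 values tested, and chance gives such a gap in about 1 of 20 groups. Nissle 1 was also the sample with the highest mean of the neutrophil markers, 2.66, and the part of those cells in its Ptgs2 level was not tested.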

How the results depend on the processing

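The 10 assays stayed uncalled in all 6 comparisons under all 33 alternatives except array weights, which called Pla2g4c, Plaa and Anxa1 between DNBS and healthy samples. For Ptgs2, Pla2g4c, Plaa and Anxa1, 756 of 792 recomputed values kept their direction and side of the threshold, 3 passed it, and 33 changed sign, all of them uncalled. The mean of the 6 Alox5 assays moved most without normalization, to 0.53 (Nissle against healthy) and -0.18 (CEC against Nissle). Over all 569 assays, the count called between DNBS and healthy (1) was 0 without normalization, 9 with the 2 groups alone, 90 with array weights, 2 with the replicate block and 1 to 7 with single samples left out (7 without DNBS 5, 6 without Nissle 1). Between CEC and healthy (1) it was 0 with quantile normalization, no normalization, 2 groups alone, the replicate block, no trend or without Nissle 3, 4 and 5, 2 with undetermined values at 40, and 0 to 1 with single samples left out. Between Nissle and healthy (1) it was 0 without normalization, with 2 groups alone, the replicate block or without Nissle 3, 4 and 5, 3 with undetermined values at 40, and 0 to 1 with single samples left out. Array weights called 21 between CEC and DNBS (0 in the main analysis). The causes were not tested.

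Signs changed as follows. With array weights Plaa was 0.12 (CEC against healthy) and 0.15 (Nissle against healthy), Pla2g4c 0.66 (CEC against DNBS) and Ptgs2 0.31 (CEC against Nissle). With the replicate block Ptgs2 was -0.74 (CEC against healthy) and -0.019 (Nissle against healthy), and Anxa1 -0.24 (Nissle against healthy). Plaa in Nissle against healthy was 0.073 with quantile normalization, 0.28 without normalization and 0.0060 after section centring. Anxa1 in CEC against Nissle was -0.0041 without normalization. Without Nissle 3, 4 and 5, Ptgs2 was 0.34 (Nissle against DNBS) and Plaa 0.42 (CEC against Nissle). With single samples left out, Ptgs2 ran from -0.12 to 0.49 (CEC against healthy), -0.11 to 0.65 (Nissle against healthy) and -0.49 to 0.28 (CEC against Nissle), Plaa from -0.32 to 0.059, -0.29 to 0.085 and -0.15 to 0.13 in the same order, Anxa1 from -0.071 to 0.18 (Nissle against healthy) and Pla2g4c from -0.49 to 0.73 (CEC against DNBS). The sign of these small differences is not settled, and a median SE of 0.416 limits what can be seen.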
